A study of Mus musculus with 18 samples.

Results

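Small nucleolar RNAs (snoRNAs) were examined in polysome gradients of mouse embryonic stem cells (ESCs), either wild type (WT) or lacking Dgcr8 (Dgcr8 knockout, KO). The members were chosen by their symbol and their reads: of 150 rows of the count table whose gene symbol starts with Snord, Snora or Scarna, 56 had a summed count of 10 or more over the 18 libraries, out of 51467 genes in the table. By class, 33 are box C/D, 19 are H/ACA and 4 are small Cajal body RNAs (scaRNAs). WT cells were of the V6.5 line and KO cells of 1 previously made Dgcr8 KO line, so that genotype and line cannot be told apart, and both were grown in serum with LIF and 2i, the MEK inhibitor PD0325901 and the GSK3 inhibitor CHIR99021. Before lysis all cells received cycloheximide (100 ug/ml, 2 minutes), an inhibitor of elongation that keeps ribosomes on messages. There were 3 gradients for each genotype, and each gave a monosome, a low polysome (2 to 4 ribosomes) and a high polysome (4 or more ribosomes) fraction. Each fraction was read with QuantSeq, a method that primes on poly(A) and counts reads near 3′ ends.

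Box C/D snoRNAs guide 2′-O-methylation and H/ACA snoRNAs guide pseudouridylation, mostly of ribosomal RNA, while scaRNAs guide the same modifications of spliceosomal RNAs in Cajal bodies. A few snoRNAs are needed for cleavage of the ribosomal RNA precursor instead. In mammals most are cut out of introns of host genes, often genes for ribosomal proteins or noncoding hosts with many small RNAs. DGCR8 recognises primary microRNA transcripts together with DROSHA, and it also binds snoRNAs. Mature snoRNAs are nucleolar and carry no poly(A) tail, so the values given here are reads that an oligo(dT)-primed method assigned to the annotated snoRNA. They are not a measure of mature snoRNA abundance, and reads of the snoRNA, of a longer precursor and of the host's intron cannot be told apart in these files. Replicates are not described as separate cultures, so p-values measure the spread between these samples, which may be technical.

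The transcript sequences of 5 members described in detail, chosen among those with a call or most reads, are shown as GENCODE M21 gives them (GRCm38), read 5′ to 3′. Capitals mark, for box C/D RNAs and the scaRNA, a box C core (TGATGA) within the first 30 bases and a box D (CTGA) within the last 15, and for H/ACA RNAs the ACA within the last 6 bases. Snora73b lies at chr4:132352322-132352526 on the minus strand in an intron of Snhg3 and Snord89 at chr1:39548745-39548854 (minus) in an intron of Gm15832. Snora33 lies at chr10:23785347-23785475 (minus) in an intron of Rps12, Snord65 at chr11:62604515-62604586 (plus) in an intron of 2410006H16Rik, and Scarna9 at chr9:15326264-15326333 (minus) in an intron of Cep295.
Snora73b: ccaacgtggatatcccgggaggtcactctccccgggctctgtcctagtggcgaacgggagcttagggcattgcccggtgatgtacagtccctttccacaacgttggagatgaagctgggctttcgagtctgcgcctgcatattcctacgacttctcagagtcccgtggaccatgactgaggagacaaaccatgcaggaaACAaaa
Snord89: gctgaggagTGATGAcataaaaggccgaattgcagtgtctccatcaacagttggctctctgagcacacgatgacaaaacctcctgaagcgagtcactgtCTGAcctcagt
Snora33: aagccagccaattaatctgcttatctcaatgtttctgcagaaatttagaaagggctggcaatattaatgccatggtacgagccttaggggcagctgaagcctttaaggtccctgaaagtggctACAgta
Snord65: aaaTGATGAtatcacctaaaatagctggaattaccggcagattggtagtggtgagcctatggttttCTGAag
Scarna9: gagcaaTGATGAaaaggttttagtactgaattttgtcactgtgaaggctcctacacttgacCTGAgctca

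On this strand and in these windows, TGATGA was found in 25 of the 33 box C/D members and in 72 of all 99 box C/D rows (72.7%). CTGA was found in 33 of 33 members and in 92 of 99 rows (92.9%), and ACA in 18 of 19 H/ACA members and in 39 of 42 H/ACA rows (92.9%). A run of 4 or more A was present in 30 of the 56 members (53.6%) and in 44 of the other 94 rows (46.8%). The median length was 98 bases for members and 94 for the other rows. Reads were sequenced to 50 bases, could be shorter after trimming, and were kept only if they aligned to 1 locus. For 10 members, 9 of them H/ACA, the transcript shares an exact run of 50 or more bases with another snoRNA model, so reads that fall wholly within such a run were lost. Trimmed reads can also be lost in shorter runs, such as 49 bases in Snora17 and 46 in Snord14c and Snord14d. Snora73b shares 56 bases with Snora73a, which is listed at 0 reads in all libraries, and Snora33 shares 54 with Gm26326, also at 0.

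Reads in snoRNAs were few and were held by a small number of members. The 56 members together had 8773 reads, 0.0173% of all reads, and 2 of them, Snora73b (2286) and Snord89 (1764), had 46.2% of these. The 20 members with most reads had 89.2%, and the other 36 had between 10 and 50 reads each over the 18 libraries. Just inside the rule lay Snord34 with 10 reads and Snord52 with 11, and just outside it Snord110 and Snord35b with 9 each. Of the other rows, 49 were at 0 reads. Library totals ranged from 1151649 to 4984833 counts, so that 3 counts in a library, used as the floor for a bound where a group had no read at all, correspond to 0.688 to 2.64 CPM (counts scaled to a common library total) depending on the library. At this depth a member at 0 in a library may still be present below that level.

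The targeted gene was read first as a check of the labels. Dgcr8 kept 38 to 183 reads in each KO library. In gradient sums, that is the counts of the 3 fractions of a gradient added together, its log2 change was -0.56 (limma-voom, SE 0.13, adjusted p = 8.29e-04), lower in the KO libraries without being lost. All 8 naive ESC markers were detected in every group, among them Nanog, whose monosome level was 265 ± 18 CPM in WT and 315 ± 13.8 CPM in KO libraries (mean ± SD, n = 3). In gradient sums none of the 8 was called between the genotypes, with a median log2 change of -0.03 and 3 above 0. In high polysomes 1 was called lower in KO cells, and 2 were above 0.

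Reads of snoRNAs were most abundant in monosomes and fell along the gradient in both genotypes. Summed over the 56 members, the level was 468, 511 and 525 CPM in the 3 WT monosome libraries, 132, 132 and 202 CPM in WT low polysomes and 61.8, 63.9 and 63.5 CPM in WT high polysomes. The KO libraries gave 342, 364 and 374 CPM in monosomes, 131, 136 and 130 CPM in low polysomes and 67.3, 77.5 and 66.0 CPM in high polysomes. No library of 1 fraction overlapped one of another fraction in either genotype. The ratio of the mean monosome to the mean high polysome level was 7.94 in WT and 5.12 in KO cells. Without the 2 members with most reads it was 11.1 and 9.68. The KO monosome libraries all lay below the WT ones (360 ± 16.4 against 501 ± 29.9 CPM, n = 3), and the KO high polysome libraries all lay above the WT ones (70.3 ± 6.26 against 63.1 ± 1.11 CPM), the latter only with Snord89 counted: without both leading members the high polysome sums were 23 ± 6.31 CPM in KO and 28.1 ± 5.48 CPM in WT cells. It also holds only with TMM scaling. Per plain library total the KO high polysome libraries had 57.8 to 69.9 CPM and the WT ones 63.7 to 68.5 CPM, which overlap, while the monosome libraries still did not (362 to 397 against 460 to 518 CPM). No test was run on these sums, since the members were chosen with results known.

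**Figure D1:**
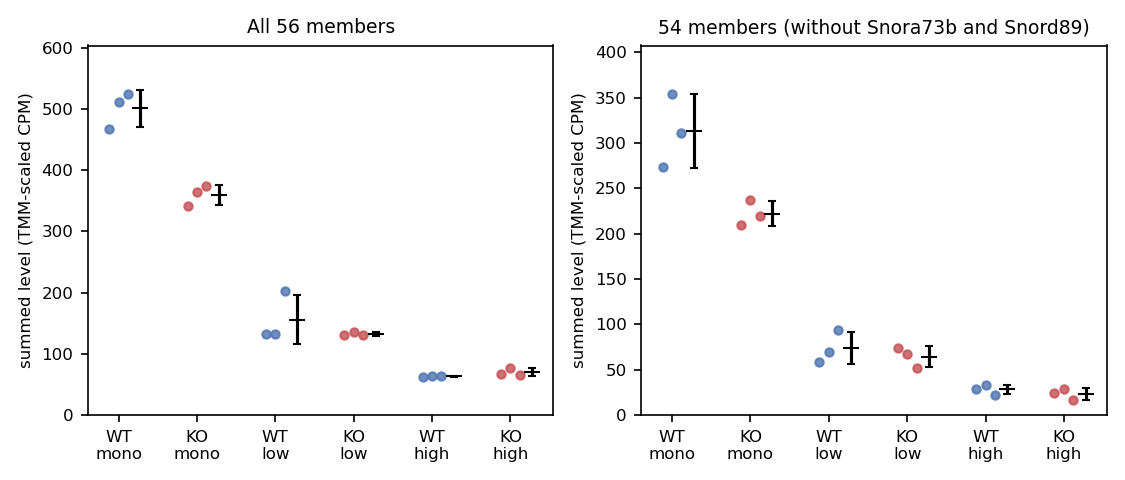
Summed level of the snoRNA members in TMM-scaled CPM (y axis, from 0) for the 6 groups (x axis), with 1 point per library (blue WT, red Dgcr8 KO) and the mean ± SD of 3 libraries in black. The left panel sums all 56 members and the right panel leaves out Snora73b and Snord89. In both panels the monosome libraries are highest and the high polysome libraries lowest.

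To ask where along the gradient each snoRNA was read, high polysomes were compared with monosomes within each genotype. The estimates of all 18 members in the main fit were below 0 in both genotypes. In WT Snora33, Snord65 and Snord72 lay at the far end while Snord89 and Snord13 lay nearest to equal levels. Snora33 and Snord72 had 1 and 3 WT high polysome reads and entered this fit only through their monosome libraries. Their place is a description. In the fit over all 17692 genes with a summed count of 10 or more (edgeR quasi-likelihood), which gives each of the 56 members a value, 33 of 56 were called lower in high polysomes in WT and 35 of 56 in KO cells, and 15.7% and 21.8% of all genes in that fit were. A call required an adjusted p (Benjamini-Hochberg) under 0.05 together with a log2 fold change beyond 1 in either direction. The median log2 difference of the 56 was -2.92 in WT and -3.21 in KO cells, beside a median over all genes of -0.01 and -0.18. Monosome reads alone can meet the rule of 10 summed reads. Snord12, for example, had 8 WT and 30 KO monosome reads of 42. Such members lean to monosomes by selection, so these counts and medians are a description. High polysomes held no read of 12 members in WT and of 15 in KO cells. With these at their bound, or at 0 for the 9 in each genotype whose monosome level was not above the floor either, the medians were -1.81 and -2.07.

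The main fit (limma-voom, genes at 3 CPM or above in no fewer than 3 libraries) held 18 members. All 18 were called lower in WT and 16 in KO cells, where 19.3% and 25.5% of the 12851 genes tested were called lower. These counts give no support of their own, because 10 of the 18 (Snora33, Snord72, Snora57, Snora31, Snora68, Snora65, Snord7, Snord100, Snora23 and Snord12) passed the filter only through their monosome libraries and so had to differ. The 8 members that pass it without any monosome library were called in WT in 8 of 8 cases, with log2 differences of -5.97 to -1.62, and in KO in 6 of 8, with -5.11 to -0.41. Snora73b, an H/ACA RNA needed for cleavage of the rRNA precursor, had 194, 173 and 140 reads in WT monosomes and 33, 39 and 51 in WT high polysomes, whose libraries are deeper. Its level was 121 ± 9.27 CPM against 14.3 ± 1.71 CPM in WT and 96.8 ± 7.68 CPM against 16.4 ± 0.504 CPM in KO cells (n = 3). The groups did not overlap in either genotype, and the log2 difference was -3.06 in WT (SE 0.20, adjusted p = 1.41e-16) and -2.56 in KO cells (SE 0.18, adjusted p = 3.77e-16).

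Snord65, a box C/D RNA, was lower in high polysomes as well. It had 51, 93 and 60 reads in WT monosomes and 1, 4 and 1 in WT high polysomes, and 44, 74 and 80 against 4, 4 and 1 in KO cells. Its log2 difference was -5.97 (SE 0.67, adjusted p = 7.46e-10) in WT and -5.11 (SE 0.60, adjusted p = 8.28e-10) in KO cells. Snora33 and Snord100 passed the filter only through their monosome libraries and had to differ, so their values, with the adjusted p, are a description. Snora33, an H/ACA RNA that guides rRNA pseudouridylation, had 33, 51 and 20 reads in WT monosomes and 0, 1 and 0 in WT high polysomes. With 1 read in a group only the ratio of counts can be given, and it was 211-fold lower with an exact 95% counting interval of 37.0 to 8405. In KO cells Snora33 had 34, 39 and 35 reads in monosomes and 4, 2 and 4 in high polysomes, a log2 difference of -3.90 (SE 0.50, adjusted p = 8.62e-09). Snord100, which shares the host Rps12, had 12, 12 and 15 reads in KO monosomes and 0 in all 3 KO high polysome libraries, which makes it at least 6.57-fold lower there against the floor of 3 counts per library. Intervals and floors cover counting error only, since reads without molecular identifiers are not independent molecules.

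The other tested members lay in between. Snord22, which acts in small-subunit rRNA processing, differed by -4.64 in WT and -3.18 in KO cells (log2, adjusted p = 1.49e-07 and 4.31e-08). Snord104 differed by -3.55 and -4.52, Snord45c by -2.81 and -3.41 and Snord49b by -2.89 and -3.50, all called in both genotypes. The values of other members that passed only through monosomes follow, also as a description. Snora57 had 59 reads in WT monosomes and 6 in high polysomes, and 70 and 8 in KO cells. Snord72 had 25, 19 and 15 reads in WT monosomes and 3, 0 and 0 in high polysomes, a ratio of counts of 39.9 with an interval of 13 to 199. The same ratio, over groups of 3 high polysome reads or fewer in WT, was 19.6 for Snora31 (6.07 to 101), 21.6 for Snora68 (6.76 to 110), 25 for Snora65 (7.92 to 127) and 40.5 for Snord7 (10.5 to 346), whose target is a spliceosomal RNA. Snora30 and Snord14e, with 62 and 53 reads in all, were outside the main fit and were called in neither genotype by edgeR.

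**Figure D2:**
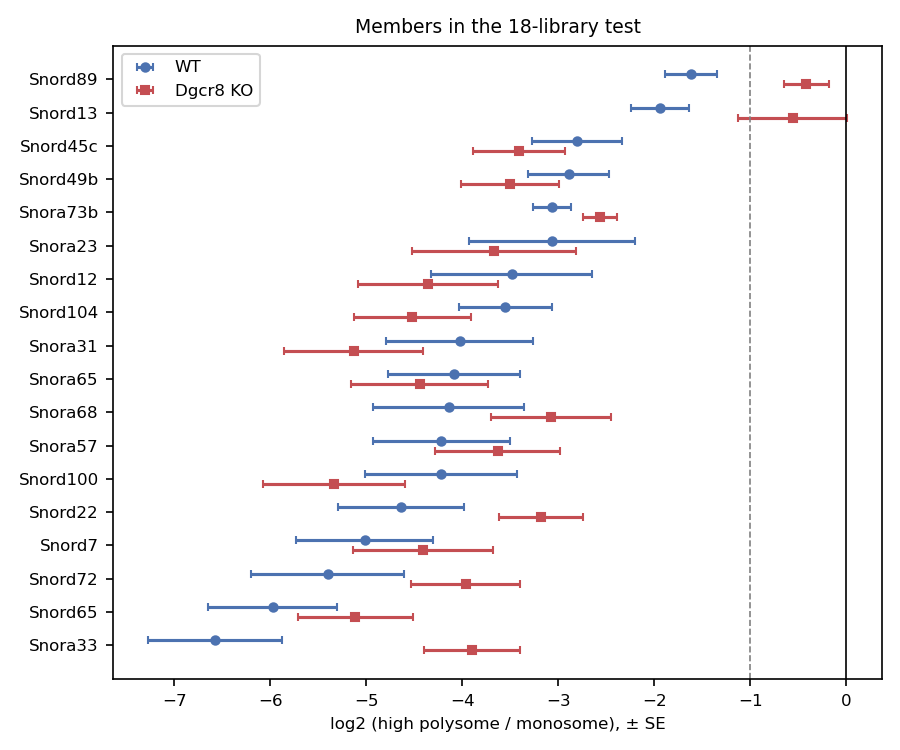
Log2 ratio of high polysome to monosome level (x axis, limma-voom estimate ± SE over 3 libraries a group) for the 18 members in the main fit, WT as blue circles and Dgcr8 KO as red squares. The solid line marks equal levels and the dashed line a log2 ratio of -1. Snord89 and Snord13 lie nearest to 0, and Snora33 and Snord65 in WT lie at -6.58 and -5.97; estimates for members with few or no high polysome reads depend on the prior count.

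Snord13 was the only member called different between the genotypes in gradient sums in the main fit, and it was lower in KO cells. It is a box C/D RNA that takes part in maturation of the small-subunit rRNA, and it has no annotated host gene. Its reads were 39, 45 and 37 in WT monosomes and 2, 17 and 6 in KO monosomes. In low polysomes they were 38, 42 and 49 in WT and 19, 8 and 4 in KO cells, and in high polysomes 24, 21 and 19 against 6, 8 and 7. The WT and KO libraries did not overlap in any fraction, although the KO libraries are in most cases the deeper ones. Per gradient its level was 13.9 ± 0.550 CPM in WT and 2.88 ± 1.1 CPM in KO cells (n = 3), a log2 change of -2.39 (SE 0.26, adjusted p = 1.36e-07). By fraction the change was -3.25 in monosomes (SE 0.45, adjusted p = 2.19e-07), -2.37 in low polysomes (SE 0.40, adjusted p = 3.91e-06) and -1.86 in high polysomes (SE 0.46, adjusted p = 6.02e-04). Snord13 kept its call in these 4 comparisons under each alternative run.

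Of 11 members tested in gradient sums, the other 10 were not called, and 23.6% of all 11653 genes tested were. For several members the estimate was close to 0, with SEs from 0.11 to 0.29. Gradient sums weight each fraction by its depth, and this mix differs between gradients, so they are not an even average over fractions. In monosomes, 13 of the 18 members in the main fit were below 0 and 5 above, with a median log2 change of -0.44. What the mix adds to the sums was not tested. Snora73b was at 46.5 ± 1.70 CPM in WT and 44.2 ± 3.91 CPM in KO gradients, a log2 difference of -0.07 (SE 0.11, adjusted p = 0.565). Snord89 differed by -0.07 (SE 0.18, adjusted p = 0.738), Snord22 by 0.08 (SE 0.20), Snord104 by -0.03 (SE 0.22), Snord45c by -0.01 (SE 0.24), Snora33 by 0.08 (SE 0.25) and Snora57 by -0.03 (SE 0.29). Snord49b, with 7.84 ± 0.435 against 5.35 ± 1.96 CPM, passed the adjusted p but not the fold threshold (-0.61, SE 0.23, adjusted p = 0.0245), Snord65 passed neither (-0.43, SE 0.19, adjusted p = 0.0545), and Snord72 was at 0.45 (SE 0.32).

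With all 56 members in the fit (edgeR quasi-likelihood), 6 were called in gradient sums, 2 higher and 4 lower in KO cells, beside 24.4% of all genes in that fit. The median log2 change of the 56 was 0.13, and 35 of them were above 0. Besides Snord13, the lower ones were Snora24 with 25 reads in WT and 8 in KO cells (log2 change -1.84, adjusted p = 0.0226), Snord38a with 23 and 8 (-1.73, adjusted p = 0.0340) and Snora21 with 33 and 14 (-1.44, adjusted p = 0.0193). The higher ones were Scarna9 with 15 reads in WT and 54 in KO cells (1.61, adjusted p = 0.00643) and Snord12 with 9 and 33 (1.60, adjusted p = 0.0382). The WT and KO gradients overlapped for Snord12 and for none of the other 5 called members. Apart from Snord13, these members had at most 69 reads each over the 18 libraries. Snora24 and Snord38a met the rule of summed reads for membership through their WT libraries, and their KO libraries alone would not have met it. Snord12 met it through its KO libraries, and its WT libraries alone would not have. The calls of Snora24, Snord38a and Snord12 are therefore a description.

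**Figure D3:**
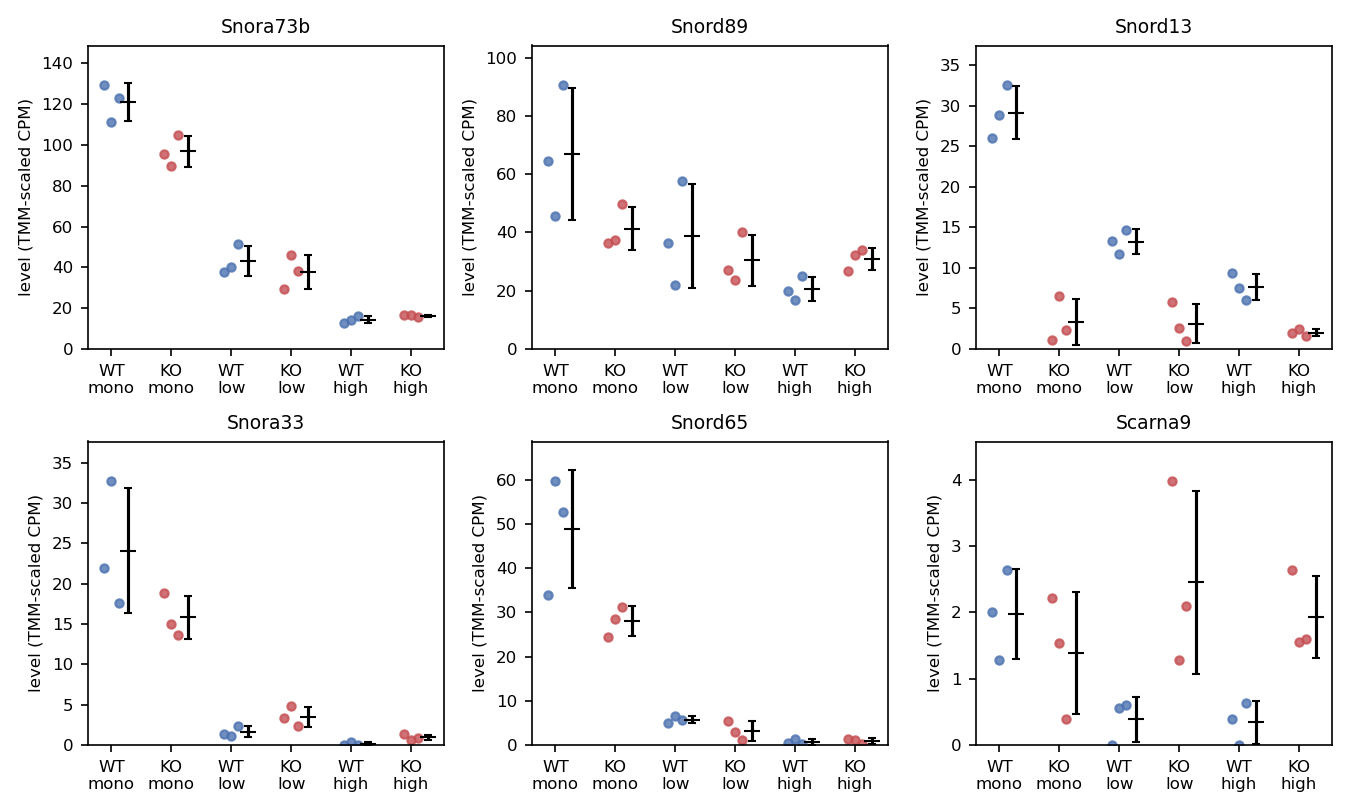
Level of 6 members in TMM-scaled CPM (y axis, from 0, a scale of its own in each panel) in the 6 groups (x axis), with 1 point per library (blue WT, red Dgcr8 KO) and the mean ± SD of 3 libraries in black. Snord13 is lower in every KO library than in any WT library of the same fraction, while the high polysome libraries of Snord89, Snora33 and Scarna9 are higher in KO than in WT without overlap.

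Within single fractions few members were called between the genotypes, in each a smaller share than over all genes. With so few reads, a member that was not called may still differ. In monosomes 2 of 18 were called, both lower in KO cells, beside 18.1% of all genes tested. Snord13 was the first, and the second was Snord7, with 13, 18 and 9 reads in WT and 5, 8 and 19 in KO libraries (9.38 ± 1.92 against 4.42 ± 2.59 CPM, n = 3, without overlap). Snord7 passed the filter only through monosomes, and its KO libraries alone would not have met it. The filter thus favoured a higher WT level, and the call of Snord7 is a description. Its log2 change was -1.16 (SE 0.41, adjusted p = 0.0241), and this call was lost in edgeR on the same genes (adjusted p = 0.0667) and over all genes (adjusted p = 0.130), in DESeq2 (adjusted p = 0.118), and without WT replicate 2 (adjusted p = 0.129), KO replicate 1 (0.0821) or KO replicate 2 (0.127). Snord65 was lower without overlap, 28 ± 3.45 against 48.8 ± 13.3 CPM, and passed the adjusted p but not the fold threshold (-0.74, SE 0.22, adjusted p = 0.00733). In the fit over all 56 members 2 were called, Snord13 and Snora21 (16 reads in WT and 4 in KO monosomes), beside 14.5% of all genes.

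In low polysomes 3 of 18 were called, all lower in KO cells, beside 25% of all genes tested: Snord13 and 2 members of the same host, 2410006H16Rik. Snord65 had 14, 24 and 19 reads in WT and 18, 9 and 4 in KO low polysomes, and the libraries overlapped. Its log2 change of -1.18 (SE 0.46, adjusted p = 0.0290) became -0.51 (adjusted p = 0.351) without KO replicate 3, and the call was also lost without WT replicate 2 or 3 and, by the fold threshold, in edgeR (-0.92) and DESeq2 (-0.94). Snord49b had 20, 17 and 27 reads in WT and 11, 6 and 15 in KO low polysomes and changed by -1.05 (SE 0.41, adjusted p = 0.0295), a call lost without WT replicate 1 or 3 or KO replicate 2. Without WT replicate 3 only Snord13 was left among the low polysome calls. With all 56 members 3 were called, Snord13 and Snord49b lower and Scarna9 higher, beside 20.9% of all genes.

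In high polysomes 2 of 18 were called, Snord13 lower and Snora33 higher in KO cells, beside 33.1% of all genes tested. Snora33 rested on 1 read over the WT libraries and 10 over the KO libraries, a ratio of counts of 8.01 with an exact 95% interval of 1.1 to 348. Its call (adjusted p = 0.0298) was lost with total counts (adjusted p = 0.0527) and without WT replicate 1, WT replicate 3, KO replicate 1 or KO replicate 3, with adjusted p of 0.0541 to 0.138. Snord104, at 6, 4 and 6 reads in WT and 2, 3 and 2 in KO libraries, did not overlap but was not called (-1.38, SE 0.73, adjusted p = 0.101). In the fit over 56 members 3 were called, Snord13 lower and Snora33 and Scarna9 higher, beside 26.3% of all genes.

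**Figure D4:**
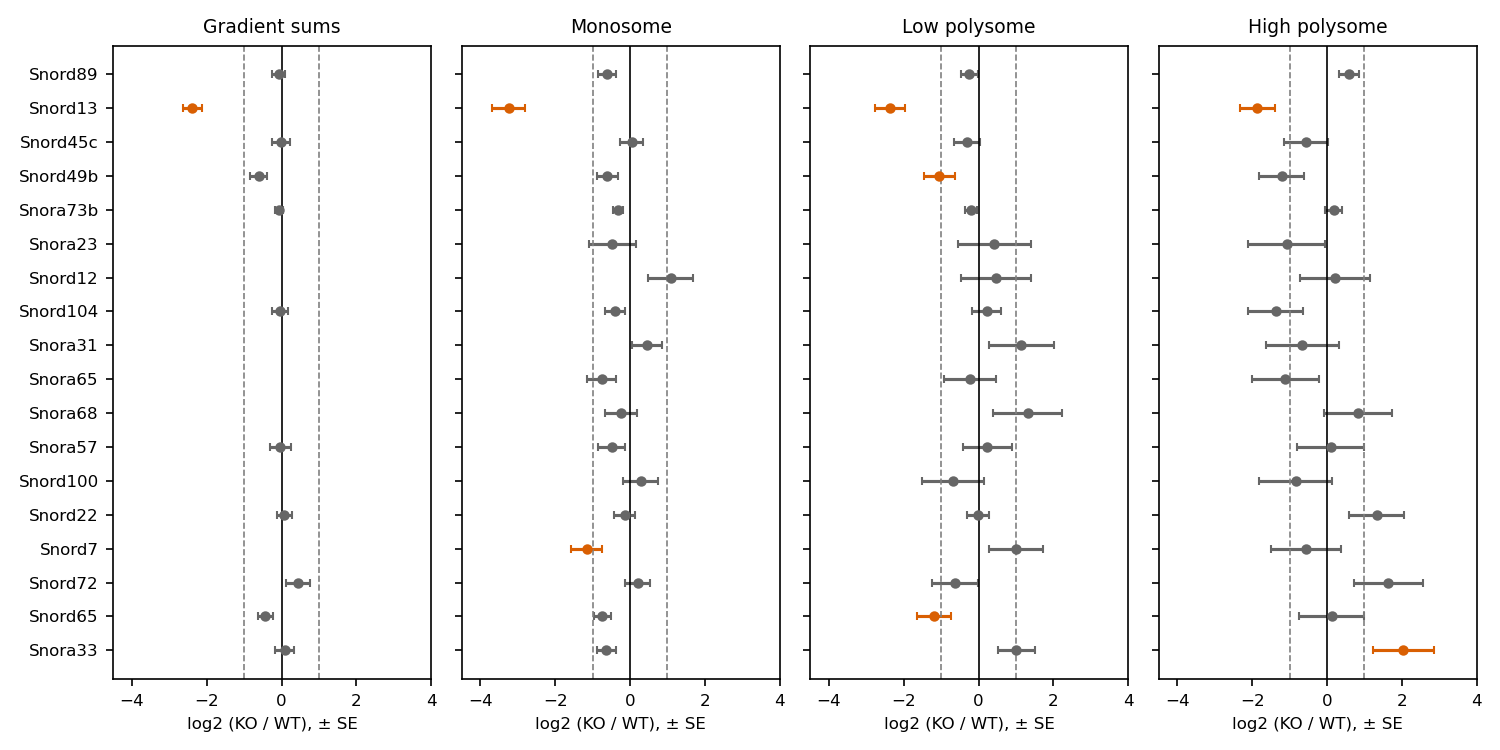
Log2 change of KO against WT (x axis, limma-voom estimate ± SE) for the 18 members in the main fit, in gradient sums (11 members tested) and in each fraction, 3 libraries a group. Orange marks a call, grey none, and dashed lines mark log2 changes of -1 and 1. Snord13 lies left of -1 in all 4 panels.

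The change in translation level is the genotype by fraction interaction, here the KO against WT difference in the high polysome to monosome ratio. It was called for 2 of 18 members, both higher in KO cells, beside 15.1% of all genes tested. Snord89, a box C/D RNA, had 97, 71 and 103 reads in WT monosomes and 66, 97 and 128 in KO monosomes, and 51, 47 and 79 against 81, 104 and 148 in high polysomes. Its level thus was 66.9 ± 22.6 and 41.3 ± 7.47 CPM in monosomes, which overlapped, and 20.6 ± 4.16 and 31.0 ± 3.77 CPM in high polysomes, which did not (n = 3). The change was 1.20 (log2, SE 0.36, adjusted p = 0.00985), with a high polysome to monosome difference of -1.62 (SE 0.27, adjusted p = 2.82e-06) in WT and -0.41 (SE 0.24, adjusted p = 0.122) in KO cells. Under total counts, which shift the median of all genes for this comparison from 0.01 to -0.32, it was 0.87 (adjusted p = 0.0611).

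Snora33 changed by 2.68 (SE 0.86, adjusted p = 0.0161), a value that rests on 1 WT high polysome read, and its call was lost without WT replicate 1 (adjusted p = 0.0829) or WT replicate 3 (adjusted p = 0.0708). Not called were Snord13 at 1.39 (SE 0.64, adjusted p = 0.105), Snord22 at 1.46 (SE 0.79, adjusted p = 0.173) and Snord72 at 1.44 (SE 0.98, adjusted p = 0.293). Over the 18 members the change ranged from -1.12 to 2.68 with 10 above 0.

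Most members sit inside another gene, and the reads of the hosts differed from those of the members. Of the 56, 50 lie within a gene on the same strand, 41 hosts in all, and 20 lie in 16 ribosomal protein genes. The 6 without a host include Snord13, Snord104, Snora57 and Scarna2. In gradient sums 10 of 39 hosts tested were called lower in KO cells, with a median log2 change of -0.72, where 11.4% of all genes were called lower. In monosomes 21 of 41 were, with a median of -1.11, where 9.63% of all genes were. Of 15 members tested in monosomes whose host was tested too, 13 had a higher KO to WT ratio than their host, by a median of 0.69 (log2), and so had 5 of the 6 that passed the filter without monosomes. All 7 such members in gradient sums were above their host. In high polysomes the median difference from the host was -0.0022 (log2), with 8 of 15 below the host. Members that share a host are not independent, and no test was run on these differences.

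Individual pairs show this spread. Snhg3, a noncoding host, changed by -0.64 in gradient sums (SE 0.15, adjusted p = 7.74e-04) and by -1.27 in low polysomes (SE 0.16, adjusted p = 5.97e-09), where its intronic Snora73b changed by -0.07 and -0.20. The noncoding host 2410006H16Rik changed by -1.13 in gradient sums (SE 0.10, adjusted p = 1.77e-08), beside -0.43 for Snord65 and -0.61 for Snord49b. Rpl37, a ribosomal protein gene, changed by -1.03 (SE 0.10, adjusted p = 1.83e-08), beside 0.45 for Snord72. AA465934 fell by 1.85 in monosomes (SE 0.16, adjusted p = 3.79e-12) beside -1.16 for Snord7, so that both were called there. Snora24 and Snora21, called lower only in the fit over all members, lie in Snhg8 (-1.82, adjusted p = 2.74e-11) and Rpl23 (-1.09, adjusted p = 1.14e-08), hosts that were called lower as well. Cep295, the host of Scarna9, was at -0.38 (SE 0.11). Gm15832 had 116 reads in all where the Snord89 within it had 1764, and in high polysomes it differed by 1.80 on the log2 scale (SE 0.81, adjusted p = 0.0526). Snord22 and Snord45c overlap an exon of their hosts Snhg1 and Rabggtb on the same strand. How reads in such an overlap were counted, or whether they were left out, was not stated, so these values are uncertain. With these 2, 6 members overlap an exon of another gene on the same strand.

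Along the gradient the hosts were also skewed to monosomes. In WT 33 of 41 hosts and in KO 30 of 41 were called lower in high polysomes, with medians of -2.37 and -1.97 (log2). Of all genes tested 19.3% and 25.5% were called lower, with medians of -0.01 and -0.07. In KO cells 1 host was called higher. Members and hosts can be compared there only for the 6 pairs whose member passed the filter without monosomes, and the member was the lower of the pair in 3 of 6 in WT and in 3 of 6 in KO cells. In WT Snhg3 was at -3.46 beside -3.06 for Snora73b, Snhg1 at -4.01 beside -4.64 for Snord22, and 2410006H16Rik at -4.49 beside -5.97 for Snord65 and -2.89 for Snord49b. The other 9 members had to be low in high polysomes, and no count is drawn from them.

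**Figure D5:**
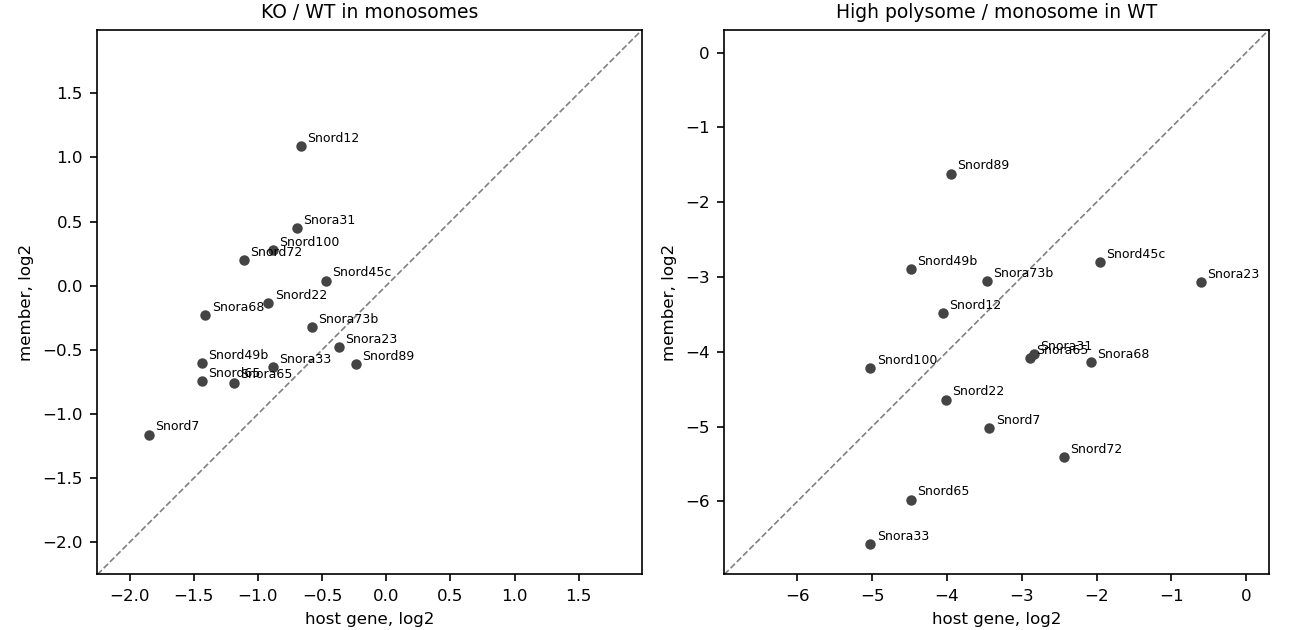
Log2 value of each member (y axis) against that of its host gene (x axis), limma-voom estimates, for the 15 members tested whose host was tested, with a dashed line at equality. The left panel gives KO against WT in monosomes, where 13 of 15 points lie above the line, and the right panel high polysome against monosome in WT, where 9 of the points are members that passed the filter only through monosomes and, of the other 6, 3 lie below the line.

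The 4 scaRNAs had 201 reads together and were outside the main fit. Scarna2, which guides methylation of spliceosomal RNA, had 3, 5 and 1 reads in WT monosomes, 3, 5 and 6 in low and 2, 2 and 1 in high polysomes, and in KO cells 5, 4 and 2, then 13, 4 and 8, then 9, 8 and 2. Scarna9 had 3, 2 and 3 reads in WT monosomes, 0, 2 and 2 in low and 1, 0 and 2 in high polysomes, and in KO cells 4, 4 and 1, then 13, 4 and 8, then 8, 5 and 7. In KO cells the mean CPM of both was higher in each polysome fraction than in monosomes, a difference edgeR did not call between high polysomes and monosomes. Scarna9 was at 1.38 ± 0.923, 2.45 ± 1.39 and 1.93 ± 0.614 CPM along the gradient (n = 3). For Scarna9 the KO and WT libraries did not overlap in low or high polysomes, and both differences were called by edgeR (adjusted p = 0.00714 and 0.0223). On so few reads the ratio of counts was 5.98 in low polysomes, with an exact 95% interval of 2.07 to 23.7, and 5.34 in high polysomes, with 1.58 to 28.1. The median log2 change of the 4 scaRNAs in gradient sums was 1.08, that of the 33 box C/D members 0.14 and that of the 19 H/ACA members 0.05. In the high polysome to monosome comparison of WT cells the medians were -1.21, -3.30 and -2.99 in the same order. No test compared the classes.

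By likeness over the 18 libraries, the members whose log2(CPM + 1) followed that of Snora73b most closely were Snord45c (Pearson r = 0.955), Snord65 (0.944) and Snora33 (0.944). These values describe a pattern that the fractions set, since all libraries share the same fall from monosomes to high polysomes.

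Other small RNA genes were read the same way. Of 81 snoRNA or scaRNA models with a summed count of 10 or more whose symbol lies outside the rule, 38 were called lower in high polysomes in WT and 37 in KO cells (edgeR), with medians of -2.20 and -2.12 (log2), and 7 were called in gradient sums, 4 higher and 3 lower in KO cells. Among 44 snRNA models 7 and 10 were called lower in high polysomes, with medians of -1.38 and -1.34, and among 55 microRNA gene models 23 and 24, with medians of -1.35 and -1.64. Of all genes in that fit, 15.7% in WT and 21.8% in KO cells were called lower, close to the snRNA share. In gradient sums 24.4% of all genes were called. These models met the same rule of 10 summed reads, with the same limit. Of the longer nuclear RNAs, Malat1 fell from 4219 ± 755 CPM in WT monosomes to 196 ± 28.2 CPM in high polysomes and was higher in KO gradients (log2 change 1.09, SE 0.15, adjusted p = 4.06e-06).

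The proteins that form snoRNPs were read as messages. The 5 box C/D core genes had a median log2 change of -0.05 in gradient sums, and Snu13 (-0.92), Rrp9 (-0.97) and Nop56 (0.29) passed the adjusted p but not the fold threshold. Of the 4 H/ACA core genes 2 were called lower in KO cells, Nop10 (-1.15, SE 0.12, adjusted p = 7.33e-08) and Nhp2 (-1.37, SE 0.10, adjusted p = 6.35e-10), both subunits of the pseudouridylation complex, while its catalytic subunit Dkc1 was at -0.05 and Gar1 at -0.60. In low polysomes, where it was called too, Nhp2 was at 480 ± 38.8 CPM in WT and 158 ± 24.8 CPM in KO cells (n = 3). Of the 4 genes, 0 were called in monosomes (median log2 change -0.10), 2 lower in low polysomes (-0.95) and 3 lower in high polysomes (-1.28). For the translation level change 3 were called lower (median -1.19). Of all genes 13.6%, 17.9% and 8.81% were called lower in the last 3 comparisons. Of 13 assembly and Cajal body genes and 18 maturation and decay genes tested, the medians in gradient sums were -0.26 and -0.25, beside -0.01 over all genes.

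Marker genes of other cell types were low, and several were lower in KO cells. Of the fibroblast markers Col1a1 was lower in KO gradients (-2.18, SE 0.46, adjusted p = 3.84e-04), with monosome levels of 4.16 ± 1.70 CPM in WT and 0.443 ± 0.0954 CPM in KO libraries, while Postn was at 0 in all WT libraries and reached 2 reads in KO ones. Of the epiblast-like markers Pou3f1 was lower (-2.90, SE 0.23, adjusted p = 2.77e-09), Otx2 was at 0.03 and Fgf5 had 2 reads over all libraries. Of 4 primitive endoderm markers Dab2 was the only one tested, and it was called lower in KO low and high polysomes. Summed per library, the 5 fibroblast markers reached 6.99 to 12.3 CPM in WT and 1.92 to 20.8 CPM in KO cells, the 4 primitive endoderm markers 2.67 to 8.17 and 0.773 to 5.20 CPM, and the 3 epiblast-like markers 44.6 to 84.2 and 32.2 to 78.8 CPM. Their part in the snoRNA values was not tested. Fewer cells of a type and less RNA per cell cannot be told apart in these bulk fractions.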

How the data were processed

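The authors deposited unnormalised read counts for each gene. Per the labels and methods, the authors trimmed reads with cutadapt 1.14, aligned them to mm10 with STAR 2.5.3a, kept unique alignments and made strand-specific counts over GENCODE M14 without ribosomal RNA with featureCounts 1.5.3. No step on molecular identifiers was stated. The table holds 51467 genes and 92 spike-in entries, which were left out. Symbols, biotypes and sequences came from GENCODE M21, which named 51274 genes. The host of Snora74a is not in M21, so hosts did not all come from it.

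Libraries held 1151649 to 4984833 counts. Genes with at least 3 CPM in at least 3 libraries were fitted with limma-voom (limma 3.58.1, R 4.3.3) with TMM factors, 1 mean for each of the 6 groups, and gradient sums 3 against 3. The genes with a summed count of 10 or more were also fitted with edgeR 4.0.16 (quasi-likelihood). DESeq2 1.42.0 was an alternative. All tests were two-sided, and p-values were adjusted over every gene in a fit (Benjamini-Hochberg). CPM values use TMM-scaled library sizes, and the CPM filter uses plain totals. A host is the gene on the same strand whose span holds the member. Fits were tested on simulated data. Other samples of the study were not analysed here. The sequence of Snord13 is not reported here.

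The members and lists were chosen with earlier results of these data known. Genes named are the 20 members with most reads, up to 5 called each way per comparison, their hosts, Dgcr8, listed pathway genes called in gradient sums, and the 3 members most like the one with most reads. Snora24, Snora21, Snord38a and Snord12 fall outside this rule and were named after their calls in the fit over all members were seen, and list genes that were not called were named as context. Fractions with the same number come from 1 gradient, and their deviations from the group means correlated at 0.03 to 0.14 (18 pairs). The gradient as a block changed no member call between fractions. Between genotypes the labels give the replicates only a shared number. Across genotypes, libraries of 1 fraction with the same number correlated at -0.0012 to 0.112 (median 0.057, 9 pairs). Those with different numbers correlated at -0.106 to 0.059 (median -0.017, 18 pairs). Whether same-number replicates were handled together was not tested.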

Additional observations from a re-analysis of the deposited data

Results flagged for a closer look

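For 2 members the genotype effect differed between high polysomes and monosomes by the interaction test of limma-voom. Snord89 had a change in its high polysome to monosome ratio of 1.20 (log2, adjusted p = 0.00985), with KO high polysome libraries above all WT ones and overlapping monosome libraries. Snora33 had a change of 2.68 (adjusted p = 0.0161), with 1 WT and 10 KO reads in high polysomes.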

How the results depend on the processing

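High polysome to monosome calls of the named members, and the lower level of Snord13 in KO cells, held in each alternative that tested them, and no called value turned its direction. Depth limited what could be tested: 35 of the 56 members had fewer than 50 reads, and 38 were not in the main fit. Counts of members called that moved by over 1.5 times were as follows. When all genes with a summed count of 10 or more were fitted with limma-voom, 5 were called in gradient sums, 6 in monosomes, 6 in low polysomes, and 37 in WT and 39 in KO cells between high polysomes and monosomes. Over all 17692 genes of that fit, 4340 were called in gradient sums, 2769 in monosomes and 3983 in low polysomes. Between fractions 3104 were called lower in WT and 4180 in KO cells, the direction of the 37 and 39 members. For edgeR on these genes the counts were 6 in gradient sums, 33 in WT and 35 in KO cells. Of all genes in that fit 24.4% were called in gradient sums, and 15.7% in WT and 21.8% in KO cells were called lower. The stricter filter of 10 CPM left 11 called in WT, 9 in KO cells and 1 in monosomes, since fewer members were tested. Of the 10162 genes tested there, 1887 in WT and 2610 in KO cells were called lower, and 1742 were called in monosomes. Without a fold threshold 2 were called in gradient sums and 5 in monosomes, beside 7872 of 11653 and 4797 of 12851 genes. In monosomes edgeR and DESeq2 on the main genes called 1, beside 2390 and 2260 of 12851 genes. Total counts left 1 call for the translation level change, beside 2352 of 12851 genes. With the replicate number as a block across genotypes, 1 was called in monosomes, where Snord7 was lost (adjusted p = 0.0570), and 4 in low polysomes. Of all 12851 genes, 2365 and 3212 were called there. Without any 1 gradient, 1 to 3 were called in monosomes, 1 to 3 in low polysomes, 1 to 3 in high polysomes and 1 to 2 for the translation level change, 18 in WT and 16 in KO cells between fractions, and 1 in gradient sums. Of all 12851 genes, 2136 to 2301, 2990 to 3229, 3960 to 4238 and 1626 to 2054 were called in the first 4. Between fractions 2166 to 2509 were called lower in WT and 3029 to 3272 in KO cells. In gradient sums 2661 to 2850 of 11653 genes were called. A floor of 20 or 50 summed reads for membership left 43 or 21 members. DESeq2 gave no adjusted p for 3 members in the translation level change. The cause of these shifts, apart from the filter, was not tested.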
